A study of Glycine soja and Glycine max with 13 samples.

Results

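GmSWEET10a (Glyma.15G049200) and GmSWEET10b (Glyma.08G183500) are a pair of soybean genes for sugar transporters of the SWEET family. They were chosen by identifier, and both were found among the 43517 features of the count table, so 2 of 43517 features are described here. The names come from the literature on these identifiers and were not checked against an annotation. The data are strand-specific RNA sequencing of seeds from field-grown plants, taken 13 days after flowering. The 6 cultivated lines (Glycine max) were df12, df14, df17, df36, df3 and df43, and the 7 wild lines (Glycine soja, the wild relative of the crop) were ys1, ys16, ys17, ys23, ys26, ys29 and ys34. Each line was sequenced once, no treatment was given, and the number of plants or seeds per sample was not stated. The spread within a group is therefore the spread between lines, and the variation between plants of 1 line was not measured.

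SWEET proteins sit in membranes and let sugars pass down their concentration gradient. No living channels join the seed coat to the embryo of a seed such as that of soybean, so sugar that arrives in the seed coat has to be released by transporters before the embryo can take it up. In soybean, the SWEET10 pair is known for this release from the seed coat, and variation at these genes has been linked to seed size, oil and protein. Storage protein transcripts, which accumulate in the cotyledons as seeds fill, serve as a measure of how far filling has gone. The measure used here was Glyma.03G163500, known in the literature as a glycinin gene. Its transcripts were detected in all 13 libraries, but at levels from 0.930 to 13987 CPM (counts scaled to 1 M, or mega, per library, with TMM factors). A sample of whole seeds mixes seed coat, embryo and other tissue. Fewer cells of one tissue and less RNA per cell cannot be told apart in such a sample.

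The libraries held 12.7 M to 26.0 M counts, with a median of 16.6 M. The 8 most abundant features took 15.9% to 38.8% of a library, with the highest share in ys34 and the lowest in df36. At these depths counting error was small beside the differences between lines: the lowest count of GmSWEET10a was 160, in ys34, and the lowest of GmSWEET10b was 3409, also in ys34. What the counting did with reads that fit more than 1 gene was not stated. The pair are related copies, so the division of counts between them is uncertain to the extent that reads fit both.

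GmSWEET10a transcripts were more abundant in seeds of most cultivated lines than in seeds of most wild lines. In cultivated lines the lowest level was 62.6 CPM in df3, the median 114 CPM and the highest 194 CPM in df36, against a lowest level of 10.9 CPM in ys34, a median of 28.7 CPM and a highest level of 102 CPM in ys1 in wild lines. The groups overlapped: 4 of 6 cultivated lines lay above the highest wild line, 6 of 6 lay above the wild median, and 4 of 7 wild lines lay below the lowest cultivated line. The order of the levels was df36, df17, df12, df43, ys1, df14, ys23, ys26, df3, ys29, ys16, ys17 and ys34. Neighbours whose exact 95% Poisson intervals overlapped were df36 and df17, df43 and ys1, ys1 and df14, ys26 and df3, and ys17 and ys34. Overlap of intervals is a description, and the difference between neighbours was not tested.

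The wild lines fell far apart in GmSWEET10a. Lines ys1, ys23 and ys26 held 102, 81.0 and 62.9 CPM, within the cultivated range, while ys29, ys16, ys17 and ys34 held 28.7, 23.7, 12.8 and 10.9 CPM. The range among wild lines was 9.37-fold, and among cultivated lines 3.10-fold. The SD of its log2 CPM was 0.63 in cultivated and 1.28 in wild lines, where the median SD of all tested genes was 0.46 among cultivated and 0.37 among wild lines. Of 2958 genes with a mean CPM within 2-fold of that of GmSWEET10a, 79.7% varied less among cultivated lines and 96.7% varied less among wild lines.

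GmSWEET10b gave the higher counts of the pair in every line. In cultivated lines the lowest level was 523 CPM in df14, the median 669 CPM and the highest 1299 CPM in df36, against a lowest level of 216 CPM in ys16, a median of 376 CPM and a highest level of 583 CPM in ys1 in wild lines. Again 4 of 6 cultivated lines lay above the highest wild line and 6 of 6 above the wild median, while 5 of 7 wild lines lay below the lowest cultivated line. The order was df36, df17, df43, df12, ys1, ys26, df3, df14, ys23, ys17, ys29, ys34 and ys16. In this order, overlapping 95% counting intervals joined ys26 with df3, df3 with df14, and df14 with ys23. Neither gene parted the groups completely (0 of 2), as 347 of 31420 tested genes, or 1.10%, did.

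**Figure D1:**
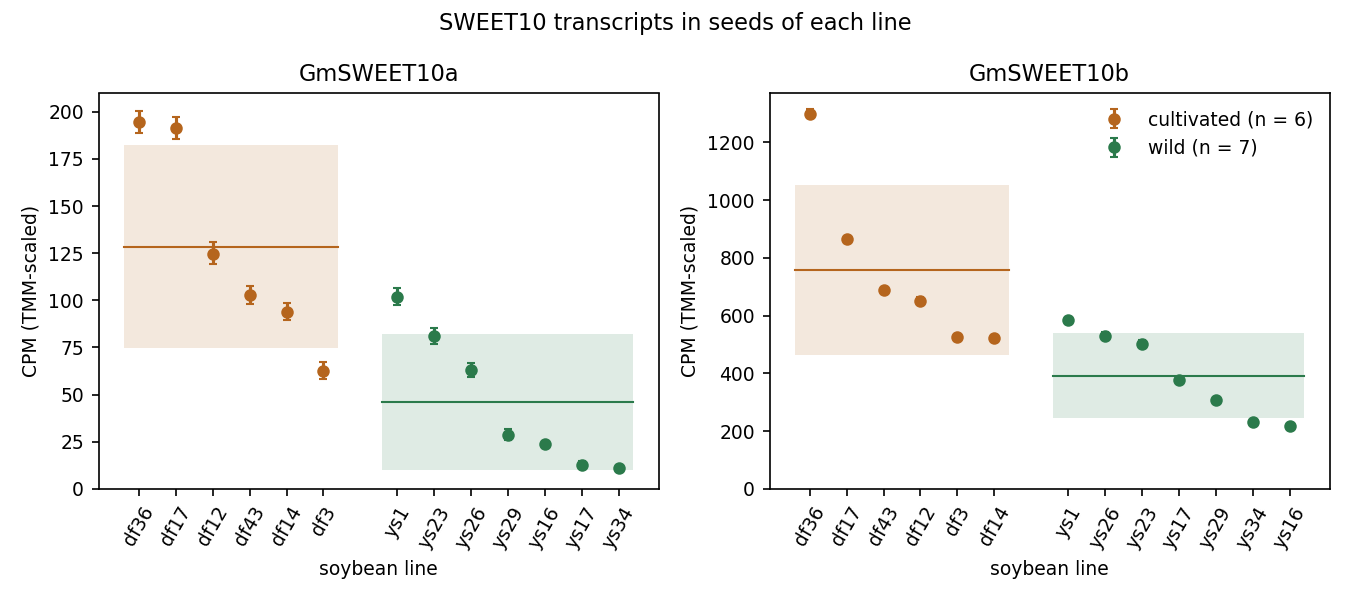
Transcript level (CPM, TMM-scaled, linear axis from 0) of GmSWEET10a on the left and GmSWEET10b on the right in each soybean line, cultivated lines left of wild lines. Points are lines with exact 95% Poisson intervals (hidden by the points where narrow), horizontal lines are group means and shaded bands are ± 1 SD. Line df36 is highest for both genes, and ys1, ys23 and ys26 lie nearest to the cultivated lines.

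GmSWEET10b spread about equally widely in both groups. Its range was 2.49-fold among cultivated lines and 2.70-fold among wild lines, and the SD of its log2 level was 0.50 in the cultivated and 0.58 in the wild group. Of 208 genes within 2-fold of its mean CPM, 44.7% varied less among cultivated lines and 74.5% varied less among wild lines. Line df36 stood apart at the top, with 1299 CPM against 863 CPM in df17, the next cultivated line. That library also had the most counts (26.0 M) and the lowest share in the 8 most abundant features (15.9%), and the part of these in its levels was not tested.

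Whether the 2 genes differed between cultivated and wild seeds was tested by edgeR across all 31420 tested genes. GmSWEET10a averaged 128 ± 53.9 CPM in cultivated and 46.0 ± 36.0 CPM in wild lines, and GmSWEET10b averaged 758 ± 293 CPM in cultivated and 392 ± 148 CPM in wild lines (SD, n = 6 and n = 7). With the group as the only term, the 95% intervals of the fold, cultivated over wild, ran from 1.35 to 5.76 for GmSWEET10a and from 1.25 to 2.99 for GmSWEET10b. Neither passed after adjustment over all genes (edgeR quasi-likelihood test, p adjusted by Benjamini-Hochberg: adjusted p = 0.156 and 0.148). So 0 of the 2 were called, where 14 of all 31420 genes, or 0.0446%, were called. Their unadjusted edgeR p-values were 0.00863 for GmSWEET10a and 0.00562 for GmSWEET10b, and 18.9% of all tested genes had an unadjusted p under 0.05. By p-value GmSWEET10b ranked 1193 and GmSWEET10a 1730 among the tested genes. A fold at least as large in the same direction was fitted for 0.773% of tested genes in the case of GmSWEET10a and for 3.24% in the case of GmSWEET10b, with a median log2 fold change of -0.015 over all tested genes. DESeq2 called both (adjusted p = 0.0418 for GmSWEET10a and 0.0309 for GmSWEET10b), where it called 4.15% of genes, and limma voom called neither (adjusted p = 0.234 and 0.237), where it called 0.0382%.

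The number of genes called without regard to filling depended on the line set, but the 2 genes stayed uncalled by edgeR whichever 1 line was left out. The log2 fold change of GmSWEET10a then ran from 1.31 without ys34 to 1.81 without ys1, and that of GmSWEET10b from 0.73 without df36 to 1.07 without ys1. Cultivated df3, the lowest cultivated line for GmSWEET10a, had 32.2% of its counts in the 8 most abundant features. Without df3 the log2 fold change was 1.62 for GmSWEET10a and 1.04 for GmSWEET10b. Among wild lines, ys29 and ys34 had the highest shares of the 8 most abundant features (30.7% and 38.8%). They were among the 4 lowest wild lines for both genes. Without both of them the log2 fold change was 1.20 for GmSWEET10a and 0.79 for GmSWEET10b (edgeR adjusted p = 0.344 for each, higher than under any other alternative; the DESeq2 values above were lower than under any other).

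The seeds of different lines had reached different stages of filling by the measure of Glyma.03G163500. In cultivated lines it stood at 0.930 CPM in df14, 13.4 in df36, 147 in df3, 522 in df43, 1011 in df17 and 13987 in df12. In wild lines it stood at 5.26 CPM in ys16, 6.84 in ys29, 8.08 in ys34, 1401 in ys17, 5655 in ys26, 6478 in ys23 and 11321 in ys1. The wild lines thus formed separate clusters of 3 and 4 lines, while the cultivated lines were spread over the whole range. In log2 CPM it averaged 7.30 ± 4.84 in cultivated and 8.19 ± 5.17 in wild lines (SD, n = 6 and n = 7), and the groups differed by less than this spread (two-sided p = 0.749, exact permutation test).

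Filling was allowed for by the log2 CPM of Glyma.03G163500 as a term in the model, with the same slope in both groups. The fitted differences between the groups were then larger and the intervals further from no difference. A single fold from this model cannot show a difference that varies with filling. The fitted fold of GmSWEET10a, cultivated over wild, was then 3.60, with a 95% interval of 1.84-fold to 7.04-fold (log2 fold change 1.85, SE 0.45). That of GmSWEET10b was 2.15, with an interval of 1.43-fold to 3.22-fold (log2 fold change 1.10, SE 0.27). Neither passed over all genes (edgeR adjusted p = 0.0909 for GmSWEET10a and 0.0928 for GmSWEET10b). In this comparison 92 of 31420 genes were called, or 0.293%, so again 0 of the 2 stood among the called genes. Their unadjusted p-values, 0.00104 and 0.00116, were reached or bettered by 1.14% and 1.24% of tested genes. DESeq2 called both (adjusted p = 0.00111 and 0.00254), where it called 5.65% of genes, and limma voom called neither (adjusted p = 0.0686 and 0.0616), where it called 1.05%. The DESeq2 values were the lowest over all alternatives, and the highest were 0.382 for GmSWEET10a and 0.402 for GmSWEET10b, in edgeR without ys29 and ys34. Whether the fitted difference changed on adding the term was not itself tested.

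**Figure D2:**
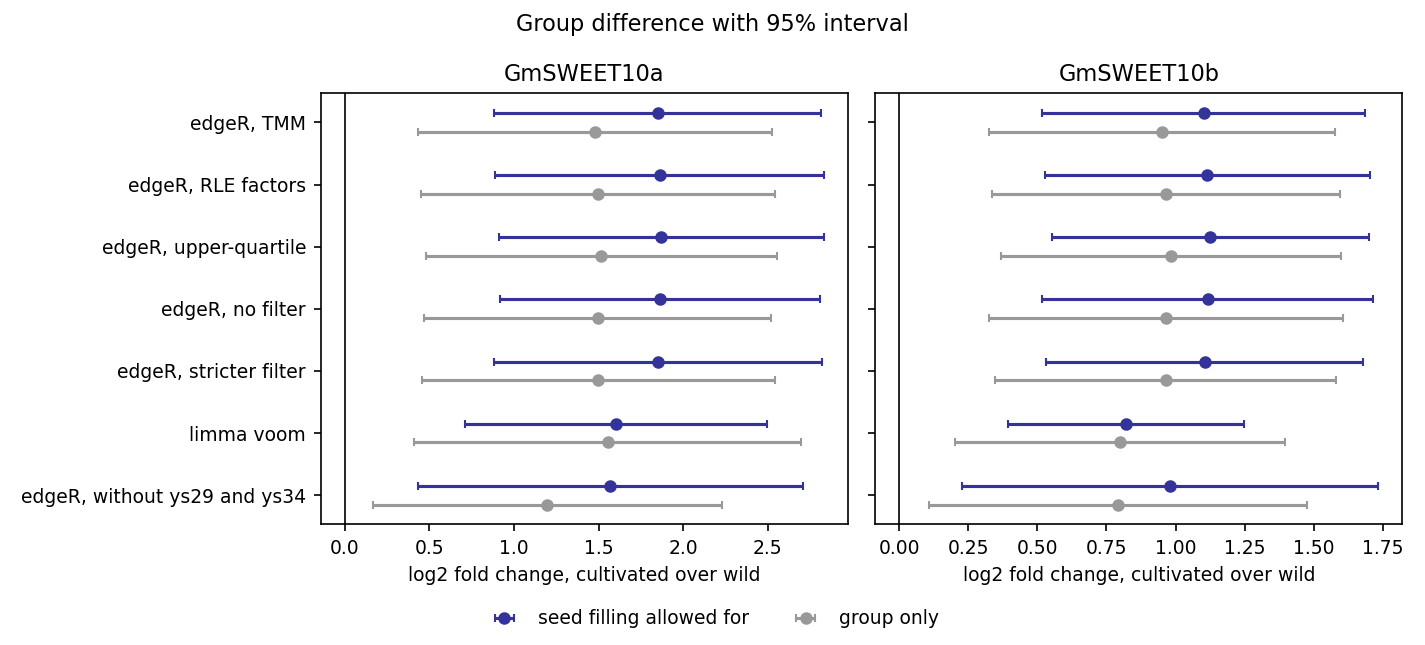
Fitted log2 fold change, cultivated over wild, of GmSWEET10a (left) and GmSWEET10b (right), with 95% intervals as horizontal bars, by setting of the analysis from top to bottom. Blue points allow for seed filling and grey points have the group as the only term. All points lie above 0, and each blue point lies right of the grey point of its row.

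The spread that the model left to each gene of the pair was smaller once filling was in it. The share of all tested genes whose spread also fell is not given here, so the fall is not shown to be particular to the pair. The biological coefficient of variation (the relative spread between lines beyond counting error, from edgeR) was 0.523 for GmSWEET10a with filling in the model and 0.601 without, and 0.339 for GmSWEET10b with filling and 0.387 without. The slope on filling was 0.11 log2 units of GmSWEET10a per log2 unit of Glyma.03G163500 (SE 0.047, edgeR adjusted p = 0.225). For GmSWEET10b it was 0.059 (SE 0.030, edgeR adjusted p = 0.320). Neither slope passed over all genes, where 4.58% of genes had a slope that did, and DESeq2 called neither (adjusted p = 0.111 and 0.217), where it called 8.75%. The GmSWEET10b slope passed with limma voom (slope 0.071, adjusted p = 0.0240), which called 13.4% of genes, and without df36 in edgeR (slope 0.079, adjusted p = 0.0353), and the adjusted p of all alternatives lay between 0.0240 and 0.690. For the GmSWEET10a slope that range was 0.0534 to 0.591.

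Set side by side by their storage transcript, cultivated and wild lines differed by amounts that varied from line to line. These are a few lines each, described with no test, and the share of all genes that part the same lines was not computed. Cultivated df14 and df36, with the lowest levels of the storage transcript, held 94.0 and 194 CPM of GmSWEET10a, while wild ys16, ys29 and ys34 held 23.7, 28.7 and 10.9 CPM. For GmSWEET10b the same lines held 523 and 1299 CPM in cultivated seeds against 216, 306 and 232 CPM in wild seeds. At the other end, cultivated df12 and wild ys1 had the highest storage transcript level of their group. There GmSWEET10a stood at 125 CPM in df12 and 102 CPM in ys1, and GmSWEET10b at 652 CPM in df12 and 583 CPM in ys1, which was the highest wild line for both genes. Wild ys26 and ys23, next below ys1 in storage transcript, held 62.9 and 81.0 CPM of GmSWEET10a and 530 and 502 CPM of GmSWEET10b. Cultivated df17 and wild ys17, at 1011 and 1401 CPM of the storage transcript, lay far apart, with GmSWEET10a at 191 CPM in df17 and 12.8 CPM in ys17 and GmSWEET10b at 863 CPM in df17 and 376 CPM in ys17. A difference in slope between the groups was tested and passed for neither gene. The slope in cultivated minus that in wild lines was -0.16 log2 units per log2 unit for GmSWEET10a (SE 0.084, 95% interval -0.34 to 0.02, unadjusted p = 0.0725) and -0.12 for GmSWEET10b (SE 0.052, 95% interval -0.23 to -0.01, unadjusted p = 0.0388), both with an edgeR adjusted p of 0.996. Over all genes edgeR called 0 differences in slope, 1041 genes (3.31%) had an unadjusted p under 0.05, DESeq2 called 6 (0.0191%) and limma voom called 1 (0.00318%).

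**Figure D3:**
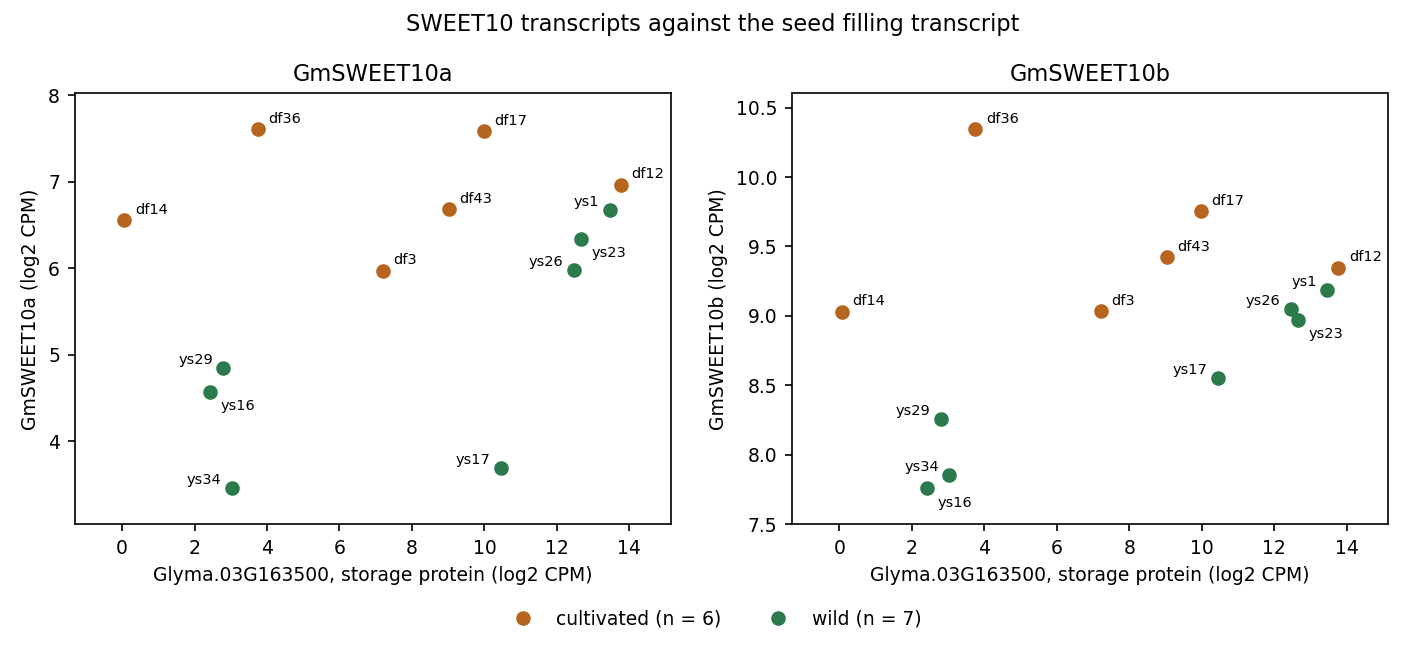
Log2 CPM of GmSWEET10a (left) and GmSWEET10b (right) against log2 CPM of the storage transcript Glyma.03G163500, with 1 point per line in brown for cultivated and green for wild. Wild lines form clusters of 3 and 4 lines along the horizontal axis, and the cultivated df14 and df36 lie far above the wild lines at the low end.

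Among the cultivated lines neither gene showed a relation with the storage transcript past the threshold. Pearson's r was 0.128 for GmSWEET10a and Spearman's rho 0.257 (exact permutation p = 0.824 and 0.658, adjusted p = 0.941 and 0.658 over 8 relations, n = 6). For GmSWEET10b r was 0.00176 and rho 0.257 (exact permutation p = 0.996 and 0.658, adjusted p = 0.996 and 0.658, n = 6). Without df14 and df12, the lines farthest from the median of the storage transcript, r was -0.155 for GmSWEET10a and -0.549 for GmSWEET10b. Because the wild lines formed separate clusters on the storage transcript, no correlation is given for them. The relation cannot be tested within clusters of 3 and 4 lines. The adjustment over 8 relations still counted those of the wild lines, and the slopes on filling given above include these clustered lines. No correlation being given for the wild lines does not mean that they showed no relation. Their values can be set side by side. In the order of the storage transcript, from ys16 through ys29, ys34, ys17, ys26 and ys23 to ys1, GmSWEET10b stood at 216, 306, 232, 376, 530, 502 and 583 CPM. GmSWEET10a stood in the same order at 23.7, 28.7, 10.9, 12.8, 62.9, 81.0 and 102 CPM. The 4 wild lines with more storage transcript all held more GmSWEET10b than the 3 with less, while for GmSWEET10a ys17 was an exception.

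The 2 genes were then compared with each other within each library, which needs no scaling between libraries. GmSWEET10b gave 6.17 ± 1.37 times the counts of GmSWEET10a in cultivated and 13.0 ± 8.93 times in wild lines (SD over 6 and 7 lines). These are ratios of counts and not of molecules, as transcript lengths were not used here. As a share of the pair's counts, GmSWEET10a took from 10.7% in df3 to 18.1% in df17 among cultivated lines, with a median of 14.1%. Among wild lines it took from 3.29% in ys17 to 14.9% in ys1, with a median of 9.87%. The exact 95% binomial intervals (Clopper-Pearson, counting error only) were 9.97% to 11.4% for df3, 17.6% to 18.7% for df17, 2.88% to 3.74% for ys17 and 14.3% to 15.5% for ys1.

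**Figure D4:**
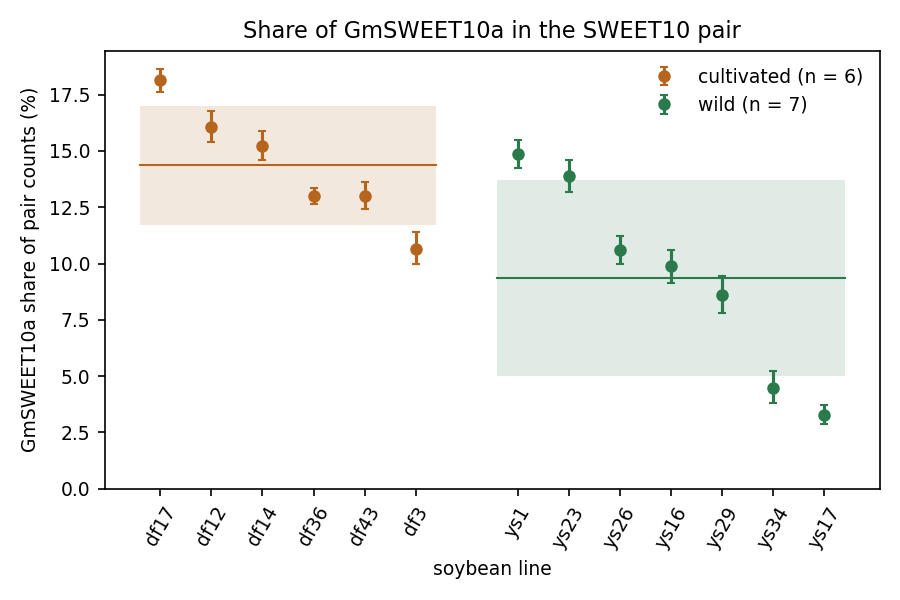
Share of GmSWEET10a in the counts of the pair (%, axis from 0) in each line, cultivated lines left of wild lines. Points are lines with exact 95% binomial intervals, horizontal lines are group means and shaded bands are ± 1 SD. Wild ys17 and ys34 have the lowest shares, and 5 of 7 wild lines lie below the lowest cultivated line, df3.

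The mean log2 ratio of GmSWEET10a over GmSWEET10b was -2.60 ± 0.32 in cultivated and -3.44 ± 0.88 in wild seeds (SD over 6 and 7 lines). The difference, 0.85, amounts to a ratio 1.80-fold higher in cultivated seeds (exact permutation test over 1716 splits, two-sided p = 0.0373, 1 test with no adjustment). In means of log2 levels per line, it also measures by how much the group difference of GmSWEET10a exceeded that of GmSWEET10b. The edgeR log2 fold changes with the group alone, 1.48 for GmSWEET10a and 0.95 for GmSWEET10b, are another measure and lay closer together. The ratio was higher than the wild median in 6 of 6 cultivated lines, 3 of them above the highest wild line, and 5 of 7 wild lines lay below the lowest cultivated line. The call rested on several single lines. The exact permutation p was 0.0871 without df12, 0.0783 without df14, 0.0896 without df17, 0.0581 without df36 or df43, and 0.0541 without ys17, ys29 or ys34. Leaving out any of the other 5 lines gave 0.0130 to 0.0476. Without ys17 the difference itself was 0.61, and without ys29 and ys34 together 0.66 (exact permutation p = 0.0866). With the storage transcript as a covariate in a straight-line fit, given as a value with no test, the difference was 0.89. Among cultivated lines the log2 ratio had an r of 0.253 and a rho of 0.429 with the storage transcript (exact permutation p = 0.644 and 0.419, adjusted p = 0.859 and 0.559, n = 6).

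The wild lines with the lowest GmSWEET10a levels differed in what the partner did. In ys17 GmSWEET10a had 228 counts and GmSWEET10b 6701, a ratio of 29.4, and in ys34 160 and 3409, a ratio of 21.3. In ys16, which had the lowest GmSWEET10b level of all lines, the ratio was 9.13, and in ys29 it was 10.6. Line ys17 also held 1401 CPM of the storage transcript, against 8.08 CPM in ys34. A low share of GmSWEET10a was thus found in a wild line with much storage transcript and in one with little.

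Lines with more GmSWEET10a mostly also had more GmSWEET10b. Over all 13 lines the Pearson correlation of log2 CPM was 0.895, which includes the difference between the groups. It was 0.798 with group means removed and 0.718 with both the group and Glyma.03G163500 removed by straight-line fits, values given as a description. Among cultivated lines r was 0.869 and rho 0.886 (exact permutation p = 0.0194 and 0.0333, adjusted p = 0.0778 and 0.128 over 8 relations, n = 6). Among wild lines r was 0.805 and rho 0.786 (exact permutation p = 0.0413 and 0.0480, adjusted p = 0.110 and 0.128, n = 7). Neither passed after adjustment. Without the 2 lines farthest from the median of GmSWEET10a, r was 0.890 over 4 cultivated lines (without df3 and df36) and 0.615 over 5 wild lines (without ys1 and ys23). Lines were measured once each, and the values of a line share its library and scaling.

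**Figure D5:**
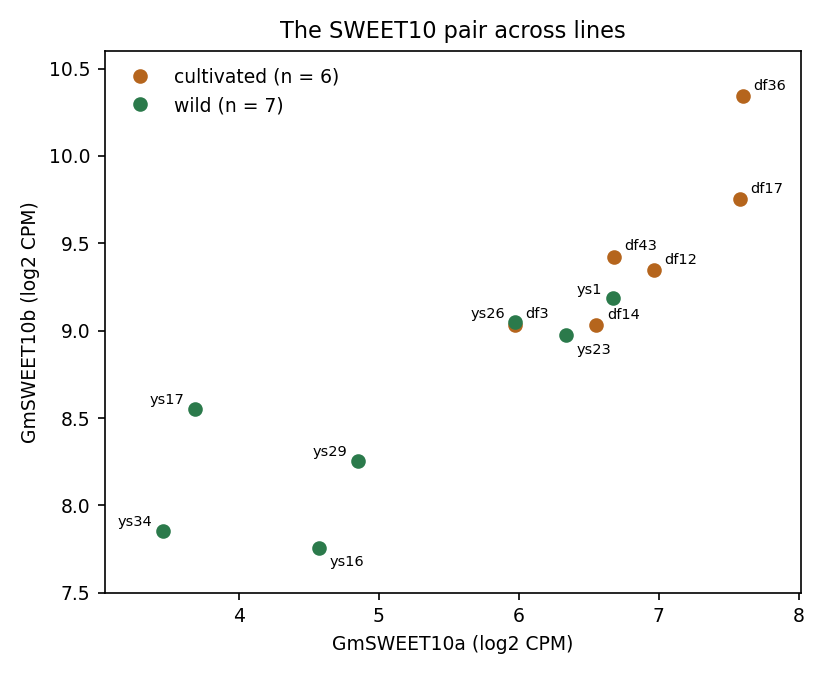
Log2 CPM of GmSWEET10b against log2 CPM of GmSWEET10a, with 1 point per line in brown for cultivated and green for wild. The cultivated lines and wild ys1, ys23 and ys26 form a band, and ys17 and ys34 lie left of it, with little GmSWEET10a for their GmSWEET10b level.

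Set beside all other tested genes, each member was near the top of the list of genes most like the other. By the correlation of log2 CPM over 13 lines, GmSWEET10b ranked 21 of 31419 genes for likeness to GmSWEET10a, and GmSWEET10a ranked 12 of 31419 for likeness to GmSWEET10b. The median correlation of all other genes was -0.025 with GmSWEET10a and -0.016 with GmSWEET10b. Within the groups the rank was lower: an r with GmSWEET10a at least as high as that of GmSWEET10b was found for 0.525% of genes among cultivated lines and 4.28% among wild lines. Seen from GmSWEET10b, the share was 0.869% among cultivated lines and 4.59% among wild lines. These ranks and shares are descriptions, with no test.

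Among genes with a mean of at least 10 CPM, the 2 most like GmSWEET10a were Glyma.02G174300 (r = 0.943) and Glyma.19G258500 (r = 0.939), and the 2 most like GmSWEET10b were Glyma.09G112400 (r = 0.963) and Glyma.01G040000 (r = 0.925), all over 13 lines. The sources used here do not pair these identifiers with names. Glyma.09G112400 averaged 32.7 ± 9.47 CPM in the cultivated and 19.5 ± 5.26 CPM in the wild lines (SD, n = 6 and n = 7), and its r with GmSWEET10b was 0.913 among cultivated and 0.936 among wild lines. Glyma.02G174300 averaged 15.6 ± 3.44 CPM in the cultivated and 9.46 ± 2.85 CPM in the wild lines, with an r to GmSWEET10a of 0.844 among cultivated and 0.908 among wild lines. The other 2 were less alike among cultivated lines. For Glyma.19G258500 the r with GmSWEET10a was 0.631 among cultivated and 0.944 among wild lines. For Glyma.01G040000 the r with GmSWEET10b was 0.727 among cultivated and 0.949 among wild lines. None of the 4 was called between the groups (edgeR adjusted p = 0.144, 0.181, 0.126 and 0.122 in the order named). No p is given for their likeness, as they were picked as the highest of 15720 genes.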

How the data were processed

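Seed RNA of 6 cultivated and 7 wild soybean lines was made into stranded mRNA libraries, per the labels' protocols. The deposited table holds raw read counts per gene: its values are whole and its column sums differ. Per the submitters' processing notes the authors used Trim Galore 0.3.3, TopHat2, SAMtools and edgeR, with no counting tool, build or annotation stated. Columns were matched to samples by the line name in the title. None of 59365 rows of the RefSeq gene table (Glycine soja assembly) matched an identifier (0 matches), so no other sugar transport gene could be named, and positions, lengths and sequences were not used here.

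The members, the storage transcript and the lists were chosen with earlier results of these data known. Genes were filtered by edgeR's filterByExpr, which kept 31420, and scaled by TMM. Quasi-likelihood F-tests (edgeR 4.0.16 in R 4.3.3) were adjusted by Benjamini-Hochberg over all tested genes at 0.05, with the group alone, with centred log2 CPM (prior count 2) of Glyma.03G163500 added, and with their interaction. Standard errors are |log2 fold change| / √F. The ratio used a pseudocount of 0.5. Exact permutation tests ran over all splits of lines or all pairings (Python 3.11.15, scipy 1.17.1). Relations with lines in separate clusters, where the widest gap on the horizontal axis exceeded 50% of its range, were not given as correlations. This removed 3 of 8 from the text but not from the adjustment. The test scripts were tested on simulated data. No line's library matched another's within sampling noise (lowest chi-square per degree of freedom 21.8). Both members, the storage transcript and, for likeness, the 2 genes of at least 10 mean CPM with the highest r per member were named by rule. Alternatives were 2 other scalings (RLE, upper-quartile), the filter left out or made stricter (1 CPM in 6 lines, mean 5 CPM), DESeq2 1.42.0, limma 3.58.1 voom with quality weights, a storage score (mean log2 CPM of 8 tested of 10 storage identifiers), each line left out, and ys29 and ys34 left out. Correlations were also computed with unscaled totals and a prior count of 0.5, and the ratio with a pseudocount of 5. Intervals cover counting error only where they are Poisson or binomial. P-values set a difference or relation against the spread between lines.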

Additional observations from a re-analysis of the deposited data

How the results depend on the processing

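No paired analysis was possible because each sample is a different line and the replicate numbers only name samples. DESeq2 called the group difference of both genes, at a log2 fold change of 1.50 for GmSWEET10a and 0.97 for GmSWEET10b with the group alone, and of 1.86 and 1.12 with filling allowed for. Limma voom called the slope of GmSWEET10b on filling (0.071). The fitted log2 fold changes kept their sign under all alternatives run, and leaving out each line gave 1.31 to 1.81 (GmSWEET10a) and 0.73 to 1.07 (GmSWEET10b) with the group alone, and 1.60 to 2.06 and 0.83 to 1.26 with filling allowed for. The slopes then ran from 0.087 to 0.133 and from 0.045 to 0.079, and the differences in slope from -0.21 to -0.12 and from -0.19 to -0.07. The difference in log2 ratio ran from 0.61 to 1.002, and without ys29 and ys34 together it was 0.66 and past no threshold.

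Among cultivated lines the correlation of GmSWEET10b with the storage transcript was -0.00485 with RLE factors and -0.0395 with unscaled totals, and leaving out each line gave -0.542 to 0.600, while that of GmSWEET10a ran from -0.0976 to 0.419. That of the log2 ratio ran from 0.0523 to 0.585. With the storage score in place of the storage transcript these correlations were 0.00826 for GmSWEET10b, 0.236 for GmSWEET10a and 0.459 for the log2 ratio, against 0.00176, 0.128 and 0.253 as reported, and none passed. The slopes on the score were 0.18 for GmSWEET10a and 0.087 for GmSWEET10b, per log2 unit of the score and so not on the same scale as those on the storage transcript, and the group differences were 1.82 and 1.07, none of them past the threshold. The correlation of the pair ran from 0.872 to 0.897 among cultivated and from 0.731 to 0.932 among wild lines. The cause of these shifts was not tested.

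The number of genes called with the group alone, 14 in the test as reported, was 23 with upper-quartile factors (17 higher and 6 lower in cultivated seeds, against 8 and 6), 25 with no filter, 1279 with DESeq2, 22 without ys29 and ys34, and 9 to 32 on leaving out each line. With filling allowed for, 92 as reported, it was 1775 with DESeq2, 330 with limma voom, 22 without ys29 and ys34, and 10 to 119 on leaving out each line.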
